A study of Arabidopsis thaliana with 6 samples.

Results

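Class III peroxidases are the secreted plant peroxidases, a large family of haem enzymes that work in the cell wall. They use hydrogen peroxide to couple phenolic compounds and so stiffen walls, polymerise lignin and cross-link wall proteins such as extensins, and they can also produce reactive oxygen species, which act in wall loosening and in defence. In roots, separate members of the family are known for root hair growth, for the lignin of the Casparian strip (the barrier in the walls of the endodermis) and for the balance between cell division and elongation. The family was described here through 60 loci, listed by identifier, of which 45 have a probe set that the array's annotation gives to that locus alone. Each of the 45 has 1 such probe set. A further 5 loci lie only on 3 probe sets shared between several genes, and the remaining 10 (PRX1, PRX2, PRX3, PRX32, PRX33, PRX34, PRX53, PRX60, PRX64 and PRX73) were not analysed here. The 45 stand beside 22746 probe sets in all.

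RNA of 8-day-old Arabidopsis thaliana plants of the ecotype Columbia-0 was hybridised to 6 Affymetrix ATH1 arrays, 3 from the lib mutant and 3 from the wild type, and both genotypes grew untreated on vertical plates with 1% sucrose, 1.2% agar and 16 h of light a day. The series title links lib to a shortage of isoleucine; the labels do not give the lesion, and OMR1, the threonine deaminase of isoleucine synthesis, was not analysed here. The labels call the arrays biological replicates and give no plant numbers per array. They name whole seedlings as the sample, whereas the design text names roots. Markers of both organs gave signal. The shoot markers PRK and SBPASE were dim, at 27.6 to 79.7 and 25.3 to 66.4 over the 6 arrays. The summed signal of 4 measured shoot markers of 6 listed (LHCB4.1, RCA, PRK and SBPASE) lay between 1092 and 1492 on the lib arrays and between 1658 and 2636 on those of the wild type, and LHCB4.1 and RCA fell, each by 0.62 on the log2 scale (adjusted p = 0.0376 and 0.0493). Of 3 measured root markers of 4 listed, PYK10 fell by 0.46 (adjusted p = 0.0393), while the root hair expansins EXPA7 (0.20) and EXPA18 (0.00) did not pass. The summed signal of the 3 lay between 13542 and 15628 for lib and between 17811 and 21898 for wild type arrays. PYK10 made up most of that sum (11847 to 14025 in lib, 16373 to 20685 in the wild type). Most of the shoot sum came from LHCB4.1 (730 to 1718 over the 6 arrays) and RCA (309 to 772). EXPA7 and EXPA18 overlapped between the genotypes. The calls of RCA and PYK10 were lost when any 1 array was left out, and that of LHCB4.1 without any 1 array other than wild type replicate 3. No marker stood at the lowest value of the scale on any array. The part of these marker differences in the results below was not tested, and in such bulk samples fewer cells of a type and less RNA per cell cannot be told apart.

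Single class III peroxidases rose and others fell in lib. In lib, PRX9 and PRX39 of the Casparian strip rose 2.14-fold and 1.51-fold, and PRX40, a root growth peroxidase, rose 2.22-fold. PRX62, of root hairs and germination, was 1.95-fold lower, and PRX71, of stressed walls, 1.34-fold lower. Outside these roles PRX61 and PRX65 had the largest rises (3.09-fold and 2.89-fold) and PRX55 the largest fall (2.06-fold lower). Their values on each array, with errors, follow by role. Values are MAS5 signals, the summary that Affymetrix software makes of the probes of a probe set, on the linear scale unless a log2 difference is named. A fold change is given as the log2 difference of lib minus wild type, and a change was called at a limma adjusted p under 0.05, adjusted over all 22746 probe sets by the Benjamini-Hochberg method. Of the 45 peroxidases, 12 changed (26.7%), beside 20.7% of all probe sets. Of these, 7 rose (15.6%), beside 10.4% of all probe sets, and 5 fell (11.1%), beside 10.3%. The share of called members is thus near that of the array as a whole, and the family did not move one way: its median log2 fold change was 0.03, beside -0.04 over all probe sets, with 23 values above 0 and 22 below. A called change of at least 2-fold was seen in 5 members, 4 higher (PRX61, PRX65, PRX40 and PRX9) and 1 lower (PRX55), or 11.1% beside 4.93% of all probe sets. By direction these were 8.89% of the members beside 2.44% of all probe sets for rises, and 2.22% beside 2.5% for falls. The arrays of the genotypes did not overlap for 15 members (33.3%), beside 38.1% of all probe sets: 7 members lay higher in lib (15.6%, beside 18.0%) and 8 lower (17.8%, beside 20.2%). Those 15 hold all 12 called members and 3 that did not pass, PRX47, PRX42 and PRX5. The count of lower members was 2 without lib replicate 1 and 3 without lib replicate 3, wild type replicate 1 or wild type replicate 3. Calls were lost across the array as well. Of all probe sets, 6.0% were lower without lib replicate 1 and 6.67% to 8.2% without 1 of the latter 3 arrays, beside 10.3% with all arrays.

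**Figure D1:**
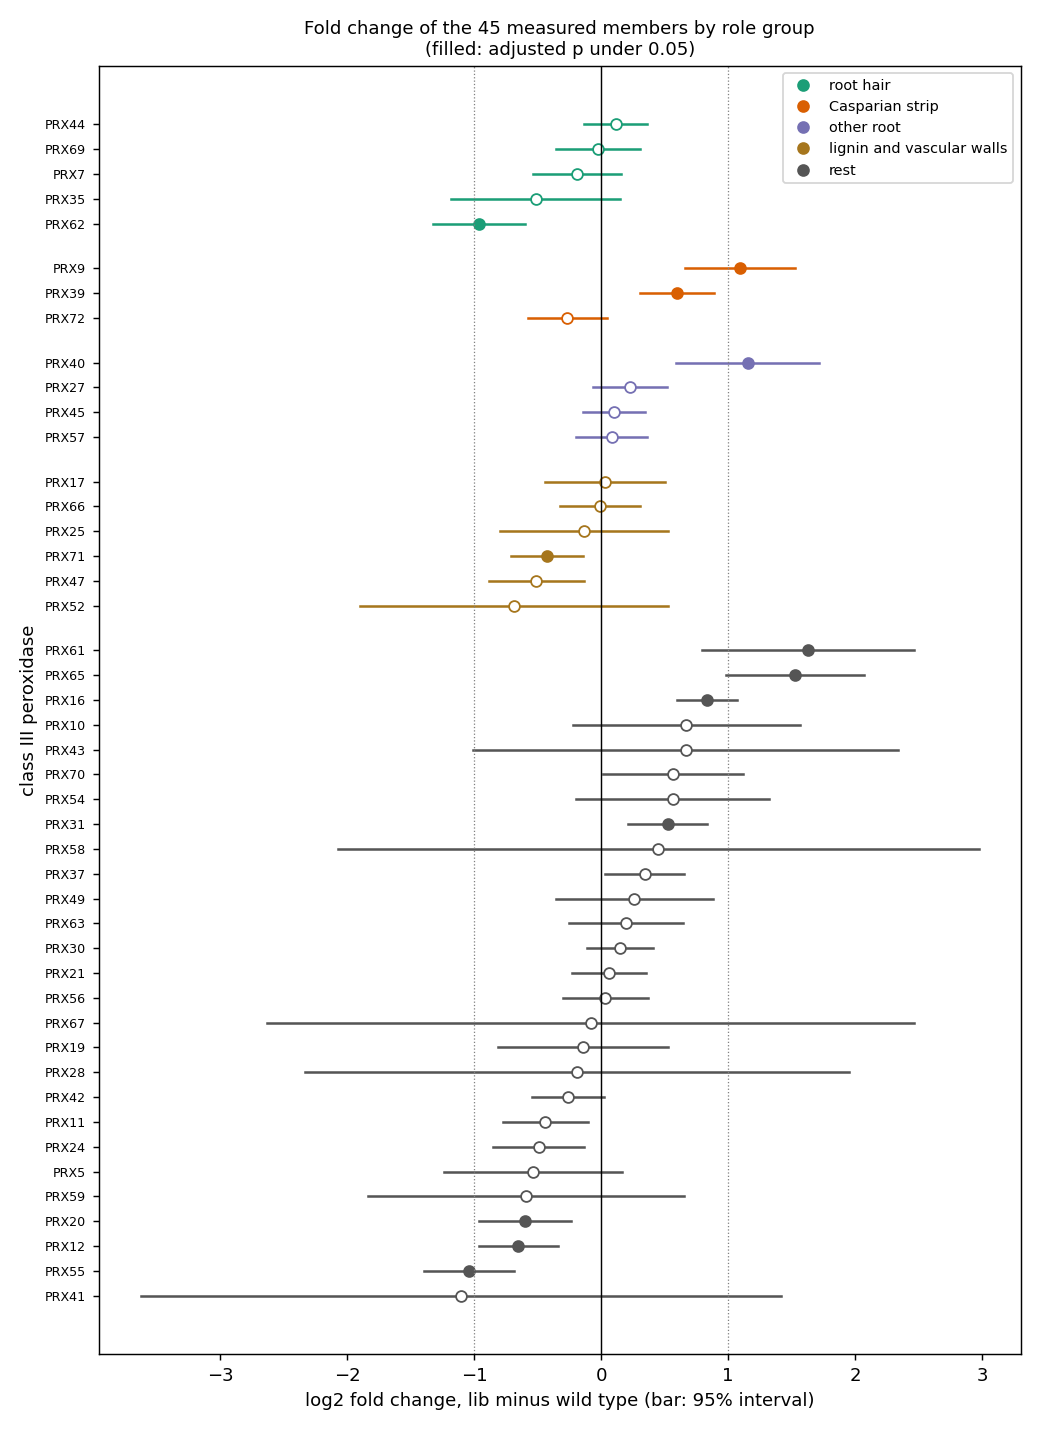
Log2 fold change, lib minus wild type, of the 45 measured class III peroxidases, ordered within 5 role groups; bars are 95% intervals, filled points passed an adjusted p under 0.05 and dotted lines mark 2-fold. The 7 called rises lie among the Casparian strip, other root and rest members. The 5 called falls lie among the root hair, lignin and rest members. The widest bars, such as that of PRX41, belong to dim probe sets.

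Root hair members came first in the order of roles. Of 9 loci in this group, 5 were measured, 1 fell and none rose (median -0.19). This 1 of 5 stands beside 20.7% of all probe sets called, 10.3% of them lower and 10.4% higher as shares of the array. The count is thus near the rate of the array, and no group was tested. The member that fell was PRX62 (AT5G39580), known with PRX69 for root hair growth in the cold and also for seed germination. Its signals were 180, 198 and 156 on the lib arrays and 306, 328 and 412 on the wild type arrays. All 3 lib arrays lay below all 3 wild type arrays, with a log2 difference of -0.96 (SE 0.16, adjusted p = 0.00338), a level 1.95-fold lower in lib.

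The other 4 measured root hair members did not pass. PRX44 (AT4G26010), which acts in root hair elongation and in the cross-linking of extensins, had signals of 2379, 2530 and 2326 in lib and 2139, 2006 and 2580 in the wild type. These ranges overlap, and its log2 fold change of 0.11 had a 95% interval of -0.13 to 0.36. PRX69 (AT5G64100) gave 10435, 10264 and 11699 in lib against 9780, 9938 and 13523 in the wild type, with wild type replicate 3 the highest of the 6. Its log2 fold change was -0.02, with an interval of -0.35 to 0.31, and its sign turned when lib replicate 1 or 2 or wild type replicate 3 was left out. PRX7 (AT1G30870), a root hair gene by expression, had signals of 1786, 1625 and 1460 in lib and 1976, 1445 and 2203 in the wild type. Its groups overlap and the log2 fold change was -0.19 (interval -0.54 to 0.16). PRX35 (AT3G49960), expressed in root hairs too, was the most scattered of the group, at 708, 767 and 413 in lib and 870, 592 and 1274 in the wild type. Its SD on the log2 scale was 0.49 in lib and 0.55 in the wild type (n = 3 each), and its log2 fold change of -0.52 (adjusted p = 0.261) had an interval of -1.18 to 0.15, so a 2-fold fall lies within it. For PRX44, PRX69 and PRX7 the interval lies within 2-fold in either direction. Beside them, the root hair expansins EXPA7 and EXPA18, the 2 measured of 8 listed root hair regulators and markers, gave log2 fold changes of 0.20 (interval -0.17 to 0.58) and 0.00 (interval -0.37 to 0.36).

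Casparian strip members are the peroxidases known to polymerise lignin in the endodermis. Of 5 such loci 3 were measured, and 2 of them rose (median 0.60). That is 66.7%, beside 10.4% of all probe sets called higher. With 3 genes the share says little about the group, and no group was tested. PRX9 (AT1G44970) had signals of 1253, 1449 and 954 in lib and 622, 430 and 665 in the wild type, so that the lowest lib array stood above the highest wild type array. Its log2 fold change was 1.09 (SE 0.19, adjusted p = 0.00449), a 2.14-fold higher level. PRX9 is also known, with PRX40, for the integrity of the tapetum in anthers. PRX39 (AT4G11290) gave 1760, 2362 and 2226 in lib and 1275, 1342 and 1567 in the wild type. The groups do not overlap, and the log2 fold change was 0.60 (SE 0.13, adjusted p = 0.0119), with an adjusted p of 0.0565 when wild type replicate 1 was left out. With no intensity trend in the limma fit, the adjusted p was 0.0515 for PRX9 and 0.0782 for PRX39.

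PRX72 (AT5G66390), which acts in the lignin of stems as well as in the Casparian strip, did not pass. Its signals were 2038, 2527 and 1941 in lib and 2826, 2170 and 2835 in the wild type, with overlap between the groups. The log2 fold change was -0.27 (adjusted p = 0.221, interval -0.58 to 0.05). The ratio of PRX9 to PRX72 within an array was higher in lib by 1.36 on the log2 scale, and that of PRX39 to PRX72 by 0.86. For both ratios the 3 lib arrays lay above the 3 wild type arrays (exact permutation test, 2-sided, p = 0.1, the smallest that 3 against 3 arrays allow, and 0.1 after adjustment over 6 such pairs chosen after their values were seen). The 2 measured of 9 listed Casparian strip partners did not pass: GSO1, a receptor kinase of barrier surveillance (log2 fold change 0.02, interval -0.31 to 0.34), and AT1G61590, a kinase of the same pathway (-0.07, interval -0.29 to 0.15).

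Other root members include targets of UPBEAT1 (UPB1), a transcription factor known to repress PRX39, PRX40 and PRX57 in the root and thereby to set where cells pass from division to elongation. UPB1 itself rose: its signals were 714, 743 and 948 in lib and 562, 470 and 488 in the wild type, a log2 difference of 0.66 (SE 0.13, adjusted p = 0.00816, and 0.0602 with no intensity trend). No lib array fell into the wild type range. PRX40 (AT4G16270) rose as well, from 51.3, 57.5 and 77.8 in the wild type to 112, 158 and 142 in lib. Its log2 fold change was 1.15 (SE 0.25, adjusted p = 0.0110), or 0.98 as log2(signal + 16), which damps dim values, and its adjusted p was 0.0510 without lib replicate 2. PRX57 (AT5G17820) had signals of 5110, 5015 and 6337 in lib and 4994, 4773 and 5751 in the wild type. The groups overlap, and the log2 fold change of 0.08 had an interval of -0.20 to 0.36. The 3 known UPB1 targets thus stood at 0.60 (PRX39), 1.15 (PRX40) and 0.08 (PRX57). The ratio of PRX40 to PRX57 was higher in lib by 1.07 on the log2 scale and that of PRX39 to PRX57 by 0.51. In both cases the arrays did not overlap (exact permutation p = 0.1 each, the smallest possible). Both pairs were chosen after their values were seen, so the test adds no support to the calls of PRX39 and PRX40.

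The remaining root members, PRX27 (AT3G01190) and PRX45 (AT4G30170), are enriched in roots. PRX45 gave 12392, 12670 and 13068 in lib and 11920, 11114 and 12574 in the wild type, and it was among the steadiest members, with an SD of 0.04 in lib and 0.09 in the wild type on the log2 scale (n = 3 each). Its log2 fold change was 0.10 (interval -0.14 to 0.34). PRX27 had signals of 6331, 6771 and 7914 in lib and 5630, 5481 and 6863 in the wild type, a log2 fold change of 0.23 (adjusted p = 0.260) with overlapping groups. Over the 3 root groups together, 4 of 12 measured members changed (3 higher, 1 lower, median 0.09). Among the 33 other measured members 8 changed (4 higher, 4 lower, median -0.01). These shares, 33.3% and 24.2%, rest on few genes and stand beside 20.7% of all probe sets (10.4% higher, 10.3% lower), and no difference between them was tested.

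**Figure D2:**
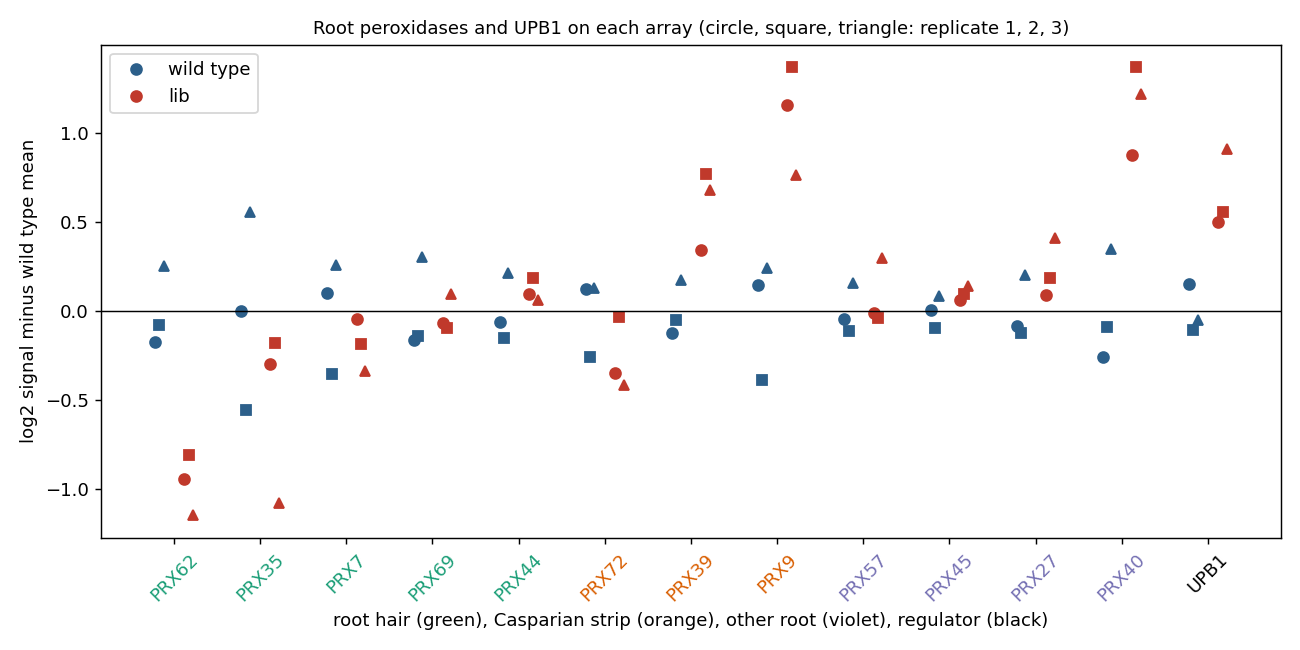
Log2 signal on each array minus the wild type mean of the same probe set, for the 12 measured root peroxidases (coloured by role group) and for UPB1; blue is wild type, red is lib, and symbols are replicates. PRX62 lies below the wild type on every lib array, PRX39, PRX9, PRX40 and UPB1 lie above it, and the other 8 overlap with it.

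Lignin and vascular wall members were all measured (6 of 6 loci), and 1 fell while none rose (16.7% called, beside 20.7% of all probe sets, median -0.28). PRX71 (AT5G64120), which limits growth and adds lignin when walls are damaged, had signals of 3116, 4020 and 3617 in lib and 4376, 4592 and 5444 in the wild type. The groups do not overlap, but the fall was small, with a log2 difference of -0.42 (SE 0.13, adjusted p = 0.0423), and the call was lost when any 1 array other than lib replicate 2 was left out (adjusted p = 0.0645 to 0.165). PRX47 (AT4G33420), linked to vessel lignin, gave 2023, 2281 and 1549 in lib and 3347, 2557 and 2415 in the wild type. Its arrays do not overlap either, and its log2 fold change of -0.51 (SE 0.17, adjusted p = 0.0579) did not pass. PRX47 passed without lib replicate 2 (adjusted p = 0.0431) and with a block for the replicate number (0.0450). It also passed with array weights (0.0380) and with only probe sets above the median signal tested (0.0253). PRX52 (AT5G05340), a stem lignin peroxidase, was dim and scattered, with no lib array above 35.3 and wild type signals of 83.3, 21.3 and 43.4. Its log2 fold change of -0.69 (adjusted p = 0.425) has an interval from -1.90 to 0.53.

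PRX66 (AT5G51890), of differentiating vessels, was at 1107, 758 and 826 in lib and 942, 836 and 895 in the wild type, a log2 fold change of -0.01 (interval -0.33 to 0.31). PRX25 (AT2G41480, -0.13) and PRX17 (AT2G22420, 0.03), both known for stem lignin, did not pass either. In both, lib replicate 3 was the lowest of the 6 arrays, at 199 for PRX25 and 203 for PRX17. Without that array PRX25 turned to 0.26 and PRX17 stood at 0.27, and PRX17 turned to -0.06 without lib replicate 1, -0.12 without lib replicate 2 and -0.08 without wild type replicate 3. HCT, an enzyme of monolignol synthesis and the only measured gene of 16 in that list, stood at -0.50 (SE 0.16, adjusted p = 0.0579), with signals of 2898, 2844 and 1949 in lib and 3586, 3150 and 4019 in the wild type. HCT arrays of the genotypes did not overlap. HCT passed only with centring (adjusted p = 0.0390) and among probe sets above the median signal (0.0242), of which 40.3% were called. In the other alternatives HCT did not pass (adjusted p = 0.0607 to 0.293).

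The 27 measured members without a role in these groups gave 7 of the 12 calls, 4 higher and 3 lower (median 0.06). That is 25.9% of the 27, beside 20.7% of all probe sets. PRX16 (AT2G18980), which takes part in seed germination, had the smallest adjusted p of the family. Its signals of 4105, 3502 and 4362 in lib stood above 2259, 2121 and 2304 in the wild type, with a log2 difference of 0.84 (SE 0.10, adjusted p = 0.000901). The wild type arrays were close together, with an SD of 0.06 on the log2 scale, against 0.16 in lib (n = 3 each).

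PRX65 (AT5G47000) and PRX61 (AT5G24070) had the largest called rises and dim signals in the wild type. PRX65 gave 168, 190 and 125 in lib and 51.1, 65.0 and 49.7 in the wild type, a log2 difference of 1.53 (SE 0.24, adjusted p = 0.00263), or 2.89-fold. As log2(signal + 16) the change was 1.30. For PRX61 the lib signals were 117, 100 and 270 and those of the wild type 38.9, 52.5 and 52.8. Lib replicate 3 stands apart here: the log2 fold change was 1.63 (SE 0.37, adjusted p = 0.0144) with it and 1.19 (adjusted p = 0.0302) without it, while without wild type replicate 1 the adjusted p was 0.0597. PRX31 (AT3G28200) rose the least of the called members, from 321, 311 and 339 in the wild type to 523, 383 and 503 in lib. Its groups do not overlap, and its log2 fold change of 0.52 (SE 0.14, adjusted p = 0.0265) lost its call without any 1 array other than lib replicate 2 (adjusted p = 0.0525 to 0.116).

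Among the falls outside the role groups, PRX55 (AT5G14130) was the largest. Its signals were 275, 368 and 240 in lib and 575, 582 and 634 in the wild type, a log2 difference of -1.04 (SE 0.16, adjusted p = 0.00218) and a level 2.06-fold lower in lib. The wild type arrays of PRX55 were again close together, with an SD of 0.08 on the log2 scale against 0.32 in lib (n = 3 each). PRX12 (AT1G71695) gave 305, 293 and 387 in lib and 462, 527 and 551 in the wild type, with no overlap and a log2 difference of -0.65 (SE 0.14, adjusted p = 0.0101). Without lib replicate 1 its adjusted p was 0.0518. PRX20 (AT2G35380) had signals of 892, 1130 and 738 in lib and 1541, 1183 and 1418 in the wild type, so that the nearest arrays of the genotypes, lib replicate 2 and wild type replicate 2, almost met. Its log2 fold change was -0.60 (SE 0.16, adjusted p = 0.0282), and the call was lost without lib replicate 1, lib replicate 3, wild type replicate 1 or wild type replicate 3 (adjusted p = 0.0780 to 0.111).

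**Figure D3:**
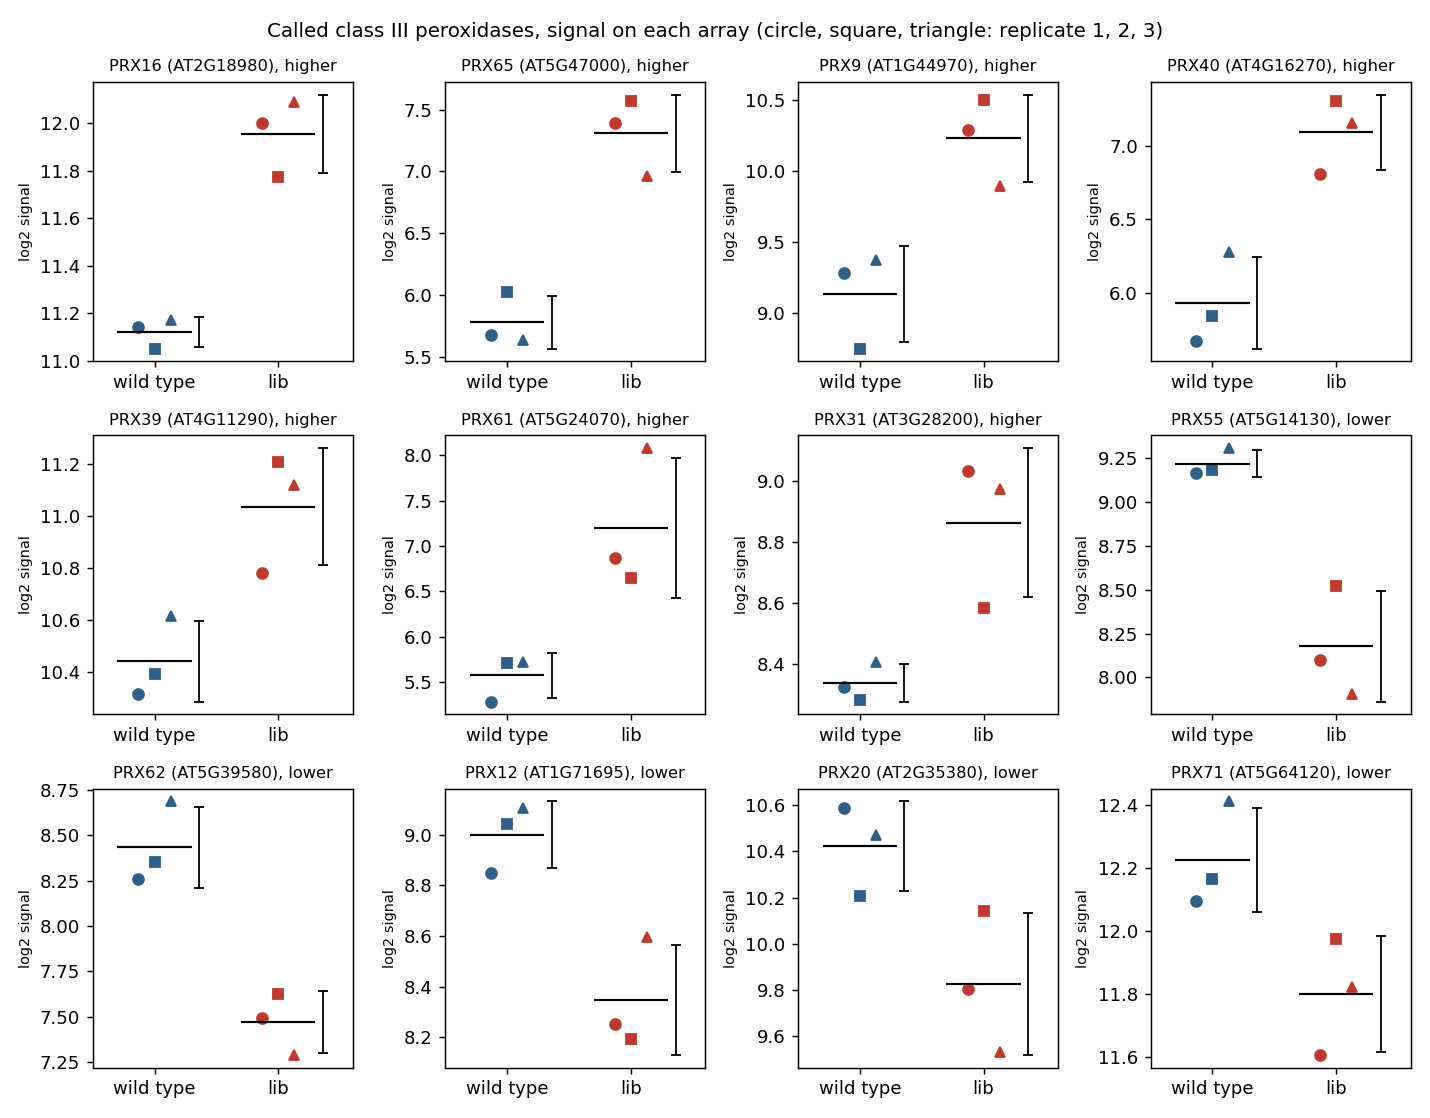
Log2 signal on each array for the 12 called class III peroxidases, wild type in blue and lib in red, with symbols for replicates 1 to 3; the line is the mean of 3 arrays and the bar its SD. In each panel the genotypes do not overlap; lib replicate 3 of PRX61 (signal 270) lies far above lib replicates 1 and 2 (117 and 100), and each panel has its own axis range.

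Just outside the threshold, named after their values were seen, stood 2 further members. PRX24 (AT2G39040) had signals of 303, 283 and 358 in lib and 500, 355 and 480 in the wild type (log2 fold change -0.49, adjusted p = 0.0563), and lib replicate 3 just overlapped with wild type replicate 2. PRX11 (AT1G68850) gave 605, 735 and 506 in lib and 921, 732 and 833 in the wild type (-0.44, adjusted p = 0.0662), again with a slight overlap. With only probe sets above the median signal tested, both passed (adjusted p = 0.028 for PRX24 and 0.036 for PRX11). PRX24 also passed with array weights (0.0217) and without wild type replicate 2 (0.0224), and PRX11 without lib replicate 2 (0.0295). PRX42 (AT4G21960), expressed throughout the plant, was bright and steady, at 15918, 16279 and 14228 in lib and 18113, 17300 and 20275 in the wild type. Its arrays do not overlap, yet the difference was small, at -0.26 (adjusted p = 0.182). PRX37 (AT4G08770), whose excess dwarfs plants, stood at 0.34 (adjusted p = 0.115), with 859, 1035 and 1046 in lib and 705, 693 and 932 in the wild type.

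In all, 33 members were not called. For 21 of them the 95% interval of the log2 fold change lay between -1 and 1, so that a 2-fold change lies outside it. The other 12 had wider intervals, and 11 of these 12 were dim, with a mean at or below the median of all probe sets. The exception is PRX35. The extremes were PRX41 (AT4G17690) at -1.10, with signals of 22.1, 1.42 and 2.78 in lib and 15.8, 3.19 and 17.1 in the wild type (SE 1.12, adjusted p = 0.548), and PRX10 (AT1G49570) at 0.67, with 112, 177 and 152 in lib and 143, 45.7 and 115 in the wild type (SE 0.40, adjusted p = 0.280). Neither shows a difference beyond the spread of its arrays, and single arrays set both values. Without wild type replicate 2 PRX10 stood at 0.18 and without wild type replicate 1 at 1.00, while PRX41 ran from -2.26 without lib replicate 1 to -0.28 without lib replicate 2. With 1 array left out in turn, the sign turned in at least 1 case for 13 of the 33 uncalled members. The SE of the members ran from 0.10 to 1.13 with a median of 0.16, beside a median of 0.20 over all probe sets.

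Several peroxidase genes lie next to each other in the genome. By the gene order of TAIR10.1, 8 pairs of the 60 loci are neighbours and both genes were measured in 3 pairs. The row of PRX69, PRX70 and PRX71 (AT5G64100, AT5G64110 and AT5G64120) holds 2 of these pairs, and its genes stood at -0.02, 0.56 and -0.42. PRX70 had signals of 158, 167 and 189 in lib and 88.3, 105 and 167 in the wild type, where replicate 3 reached the lib range, and it did not pass (adjusted p = 0.143). The ratio of PRX70 to its neighbour PRX71 was higher in lib by 0.99 on the log2 scale, without overlap between arrays (exact permutation p = 0.1, the smallest possible). That pair was chosen after its values were seen, so the test adds no support. The third pair, PRX58 and PRX59 (AT5G19880 and AT5G19890), stood at 0.45 (SE 1.12) and -0.59 (SE 0.55) with no call. PRX62 and PRX69 share a known role but are no neighbours. Their ratio stood at a log2 difference of -0.94, lower on all 3 lib arrays than on any wild type array (exact permutation p = 0.1). PRX62 and PRX69 too were paired after their values were seen. The 3 probe sets shared between several peroxidase genes were named for none of them. Their log2 fold changes ran from -0.28 to 0.61 and none passed in limma (adjusted p = 0.0968 to 0.794). The unadjusted limma p was under 0.05 for 1 of them, and for 32.9% of all probe sets.

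The hydrogen peroxide that peroxidases use comes in part from NADPH oxidases of the plasma membrane. Of 10 listed NADPH oxidase genes 3 were measured, and none passed in the reported limma fit. The unadjusted limma p was under 0.05 for 2 of the 3, as it was for 32.9% of all probe sets. RBOHG (AT4G25090) lay close to the threshold. It had signals of 281, 319 and 257 in lib and 344, 401 and 560 in the wild type. Its arrays do not overlap, and its log2 fold change of -0.58 (SE 0.18) came with an adjusted p of 0.0507. It passed with quantile normalization (adjusted p = 0.0398) and with arrays centred on their medians (0.0318). It also passed with only probe sets above the median signal tested (0.0220), with array weights (0.0445) and without wild type replicate 1 (0.0367). In the other alternatives RBOHG did not pass (adjusted p = 0.0568 to 0.282). RBOHI (AT4G11230) stood at -0.82 (SE 0.31, adjusted p = 0.101), with 56.2, 30.7 and 39.6 in lib and 68.9, 64.5 and 84.9 in the wild type, and RBOHE (AT1G19230) at -0.32 (adjusted p = 0.345). The genes for superoxide dismutases, catalases and ascorbate peroxidases were not analysed here.

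The authors' deposited table gives a p and a ratio (lib over wild type) for each probe set. By the authors' deposited table, 11 of the 45 members have a p under 0.05 (24.4%), beside 23.7% of all probe sets. Of these, 9 are among the 12 called members; PRX61, PRX31 and PRX20 are not, and PRX42 and PRX5 are added. With the further condition of a 2-fold ratio, 4 members remain in the authors' deposited table (8.89%, beside 5.02% of all probe sets): PRX65 with a ratio of 2.91, PRX40 with 2.21, PRX9 with 2.13 and PRX55 with 0.493. These p-values are unadjusted, and after Benjamini-Hochberg adjustment none of the 45 lies under 0.05 (lowest 0.0814, PRX65).

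**Figure D4:**
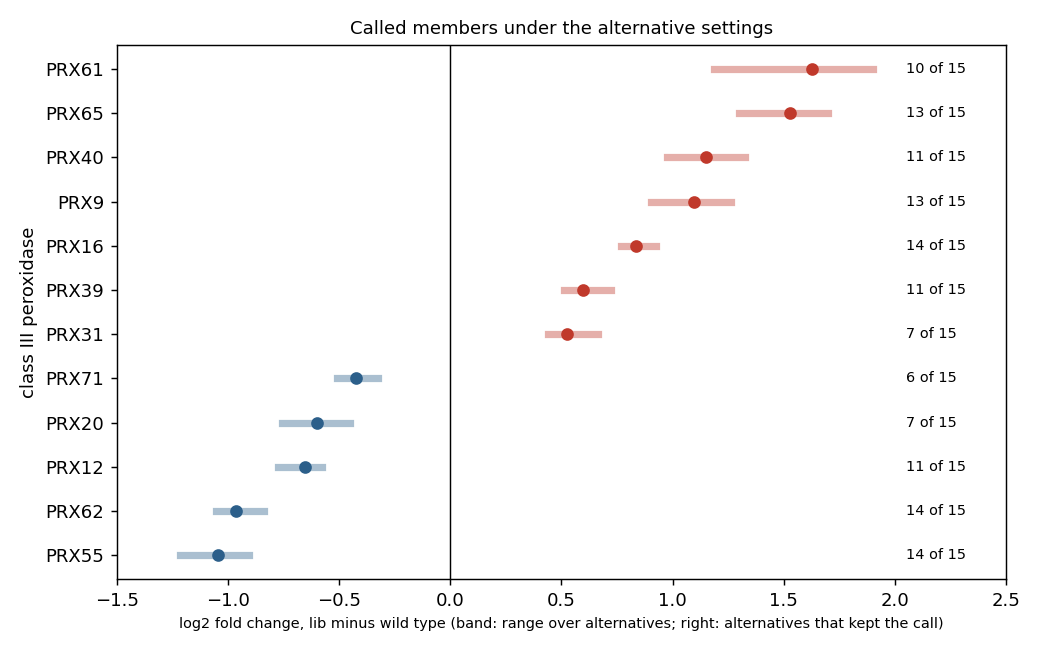
Log2 fold change of the 12 called members in the reported fit (point) and its range over the alternative settings (band); the figures on the right count the settings, of 15, in which the call was kept, where a dim member left out by the filter on signal counts as not kept. No band crosses 0, and PRX16, PRX55 and PRX62 kept the call in 14 of 15 settings, PRX71 in 6.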

How the data were processed

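The deposited table holds log2 signals for 22746 probe sets on 6 arrays. Per the submitters' processing notes the authors used MAS5, and its version is not given in the sources used for this work. On the linear scale the 2% trimmed mean is 496 on each array, and on each array 405 to 734 probe sets have the floor value, a log2 of 0, but no member has it. Values were used as deposited. Array medians lay between 7.40 and 7.52 (log2), and arrays correlated more within a genotype (median Spearman 0.980 to 0.984) than between genotypes (0.963 to 0.970). A second table deposited by the authors gives a p-value and a ratio per probe set. Tested on the files, each p-value equals an unadjusted unequal-variance test of the log2 values within 1e-06, and each ratio equals that of mean linear signals within a relative 1e-06.

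Probe sets were tied to loci through the platform annotation and the gene identifiers of TAIR10.1: 13513 had 1 gene, 503 several and 8730 none. PRX numbers are the usual numbering of the family; RefSeq names carry a number for 10 of the 60 loci, and all 10 match. Roles are background knowledge. No sequences are shown.

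All probe sets were fitted with limma 3.58.1 in R 4.3.3 (lmFit, eBayes with an intensity trend, 2-sided, Benjamini-Hochberg adjustment), after the script was tested on simulated data. With 3 arrays per group, their number limits the precision. Nothing beyond the word biological says that replicates came from separate plants, so p-values measure the spread between these samples. The exact permutation tests used Python 3.11.15. The members, their role groups and the related lists were chosen with earlier results of these data known. The rule for named genes was each called member and the 5 uncalled root hair and Casparian strip members with the smallest p, with all their arrays, and up to 3 genes per related list; members named beyond it were chosen after their values were seen.

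Alternatives were no intensity trend, quantile normalization, centring on medians, log2(signal + 16), only probe sets above the median signal, array weights, a block for the replicate number, the unequal-variance test (the methods' t-test), an adjusted p under 0.01, and each array left out.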

Additional observations from a re-analysis of the deposited data

How the results depend on the processing

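All 12 called members kept their direction in every alternative that could be fitted to them. The counts of 7 higher and 5 lower members were unchanged with quantile normalization, centring and log2(signal + 16) (26.7% of members, beside 20.5% to 21.0% of all probe sets). They were 3 and 2 with no intensity trend (11.1% of members, beside 10.5% of all probe sets). At an adjusted p under 0.01 they were 3 and 2, with no count over all probe sets. When probe sets of low mean signal were left out they were 4 and 9 (13 of the 29 members kept, or 44.8%). Of the 11373 probe sets kept, 40.3% were then called, 20.1% higher and 20.2% lower. With the unequal-variance test per probe set they were 0 and 0 after adjustment, where only 0.29% of all probe sets passed. In that test 11 members had an unadjusted p under 0.05 (24.4%, beside 23.7% of all probe sets). In limma 17 members had one (37.8%, beside 32.9% of all probe sets). With array weights the counts were 7 and 7 (31.1% of members, beside 24.6% of all probe sets). With 1 array left out, the counts ran from 5 to 8 higher and from 2 to 7 lower. Of the members 17.8% to 28.9% were then called, beside 11.9% to 16.5% of all probe sets. The median log2 fold change of the members ran from 0.00 to 0.12. The replicate numbers do not pair the arrays: deviations from the group means correlated at 0.013, -0.019 and -0.025 for numbers 1, 2 and 3, and 2 of 6 arrays correlated best with their own number. With the replicate number as a block, 7 members were higher and 4 lower (24.4%, beside 15.1% of all probe sets). PRX20 (adjusted p = 0.0592) and PRX71 (adjusted p = 0.0582) were then not called and PRX47 was.

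By role group, the 1 lower root hair member was not called with the unequal-variance test (0) and was called with each array left out (1 to 1). The 2 higher Casparian strip members became 0 with no trend, 0 with the unequal-variance test, 1 at an adjusted p under 0.01 and 1 to 2 with an array left out. The 1 higher other root member, PRX40, was left out untested by the filter on signal. The count became 0 with the unequal-variance test and at an adjusted p under 0.01, and was 0 to 1 with an array left out. The 1 lower lignin member became 0 with no trend, with the unequal-variance test and at an adjusted p under 0.01, 2 with the filter on signal and with array weights, and 0 to 2 with an array left out. Of the rest, the 4 higher became 2 with no trend, with the filter on signal and at an adjusted p under 0.01, 0 with the unequal-variance test, and 3 to 5 with an array left out; the 3 lower became 1 with no trend and at an adjusted p under 0.01, 6 with the filter on signal, 0 with the unequal-variance test, and 1 to 4 with an array left out. The filter tests fewer probe sets and left out PRX61 and PRX65 of the rest, so they had no test there. The cause of the other shifts, with the filter or otherwise, was not tested. Shares of all probe sets are given above, other than at 0.01. PRX69, uncalled at -0.02, turned to 0.0006 without lib replicate 1, 0.01 without lib replicate 2 and 0.13 without wild type replicate 3, within a range of -0.10 to 0.13 over all arrays left out. Averaging several probe sets of a locus was not run, since no member has more than 1. A planned search of promoter motifs was not run, since no promoter sequences were used here. For dim members such as PRX41, PRX58 and PRX67 (SE 1.12 to 1.13) the scatter of MAS5 near its lowest values limits what could be detected.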
